A study of Saccharomyces cerevisiae with 9 samples.

Results

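The alcohol dehydrogenase genes of Saccharomyces cerevisiae are the 8 genes ADH1 (YOL086C), ADH2 (YMR303C), ADH3 (YMR083W), ADH4 (YGL256W), ADH5 (YBR145W), ADH6 (YMR318C), ADH7 (YCR105W) and SFA1 (YDL168W). They were chosen by identifier, as the enzymes that interconvert alcohols with aldehydes, and make up 8 of the 7126 features in the deposited tables. All 8 passed the filter on low values (mean normalized count 10 or more) and are described below. RNA was sequenced from haploid BY4742 cells of the MATα mating type, which carry the alleles his3Δ1, leu2Δ0, lys2Δ0 and ura3Δ0 in every group. The cells had spent 48 h at 25 °C in YPD, a rich glucose medium, and were in stationary phase. Of 3 groups with 3 libraries each, the heat ramp group was heated from 25 °C to 50 °C at 0.5 °C/min, the heat shock group was heated over the same range at 50 °C/min, and the control group was left untreated. Both heated groups were held for 30 min at 50 °C and brought back rapidly to 25 °C before RNA extraction. Each of the 3 cultures gave one library of every group, and the ramp lasts longer than the shock, so that the rate of heating and the time spent in it cannot be told apart. The heat ramp and heat shock comparisons use the same control libraries.

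Alcohol dehydrogenases couple the conversion of an aldehyde to an alcohol with the oxidation of NADH or NADPH, and the reverse. In yeast growing on glucose, pyruvate is decarboxylated to acetaldehyde, which the fermentative enzyme Adh1 reduces to ethanol, and this step regenerates the NAD+ that glycolysis needs. Once glucose is used up, ethanol is oxidised back to acetaldehyde by Adh2, whose gene is repressed by glucose. The other members are the mitochondrial Adh3, Adh4 of the iron-activated family, the Adh1-like Adh5, the NADPH-dependent Adh6 and Adh7, and Sfa1, which oxidises the glutathione adduct of formaldehyde.

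The libraries held between 22579312 and 24415433 counted reads after the heat ramp, between 23543523 and 24341005 after the heat shock and between 26859792 and 27233289 in the control. Correlations of log2 values between libraries of the same group were 0.978 to 0.996 across the 6847 features tested. The size factors, by which the authors divided the reads, were 0.610 to 0.714 after the heat ramp, 1.11 to 1.13 after the heat shock and up to 1.46 in the control. Scaling each library to its total count in place of these factors shifted the median of all log2 fold changes by -0.91 in heat ramp against control cells, by -0.17 in heat shock against control cells and by -0.74 between the treatments. The deleted genes URA3, LEU2 and LYS2 had 0 reads in every library, which allows up to 3 reads in each. Of 6 heat response genes, all 6 were higher after the heat ramp than in the control, while after the heat shock 0 were higher and 2 lower. Transcripts of the opposite mating type were not at 0, since the a-cell receptor gene STE2 ranged from 495 to 2428 normalized counts over the 9 libraries, and the pheromone genes MFA1 and MFA2 from 29.4 to 408 and from 72.9 to 2072. All 3 of these were lower than the control in heat ramp cells, and 2 were higher in heat shock cells. Of 3 genes of the strain's own mating type, MFALPHA1 and STE3 were lower in heat ramp cells and MFALPHA2 was higher. In heat shock cells 2 of these 3 were higher and 0 lower. Beside these counts, limma at an adjusted p under 0.05 called 78.5% of all features in heat ramp against control cells. It called 57.6% in heat shock against control cells. The part of the transcripts of the opposite mating type in the results was not tested. In these bulk samples, fewer cells of a kind and less RNA per cell cannot be told apart.

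After the heat ramp, 6 of the 8 genes were higher than in the control (ADH1, ADH2, ADH3, ADH4, ADH5 and ADH7), 1 was lower (ADH6) and 1 did not pass the test (SFA1). The test was limma on log2(normalized count + 1), with an adjusted p under 0.05, and it called 78.5% of all features tested. The 8 log2 fold changes ran from -2.59 to 4.36, with a median of 1.30 against -0.01 for all features. After the heat shock, 3 genes were higher than in the control (ADH4, ADH6 and ADH7) and 1 was lower (ADH2), beside 57.6% of all features called. None of these 4 changes reached a log2 fold change of 1 in size, and the 8 values ran from -0.45 to 0.84 with a median of 0.18, against 0.04 for all features. Between the treatments, 6 genes were higher after the heat ramp than after the heat shock (the same 6 as against the control), and 1 was lower (ADH6), beside 72.0% of all features called. The median there was 0.75, against 0.04 for all features. Total count scaling gave 4 genes higher and 2 lower in heat ramp against control cells, 3 higher with 2 lower in heat shock against control cells, and 3 higher with 2 lower between the treatments. On total counts, the heat ramp values against the control were 2.56 for ADH1, 1.88 for ADH2, 3.44 for ADH5 and -3.50 for ADH6, all past the threshold in the direction given by the size factors. Over all features, the split of higher and lower calls was 2670 and 2705 in heat ramp against control cells, and 1326 and 4384 with that scaling. It was 2050 and 1895 in heat shock against control cells, and 1526 and 2402 on total counts, while between the treatments it was 2459 and 2470, and 1184 and 4096 on total counts.

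**Figure D1:**
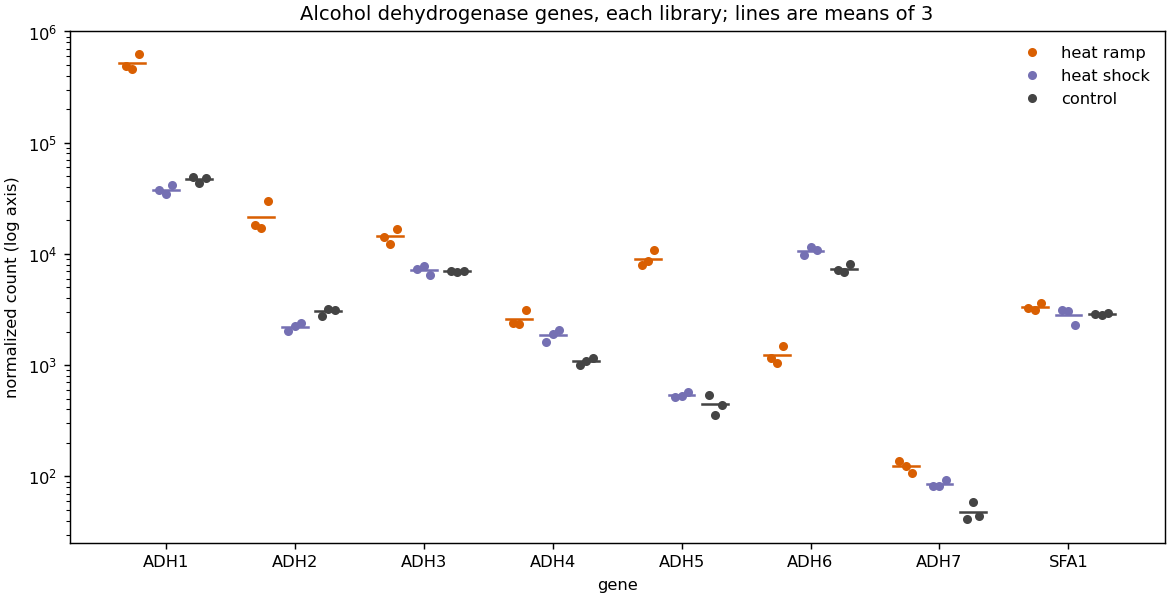
Normalized counts of the 8 alcohol dehydrogenase genes on a log axis, with a point for each library of the heat ramp, the heat shock and the control and a bar at each group mean. ADH1, ADH2 and ADH5 stand 6.92-fold to 20.5-fold higher after the heat ramp than in the control, and ADH6 is the gene that stands lower there.

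ADH1 (chromosome XV, 159548 to 160594 of the R64 assembly, minus strand) encodes the main cytosolic enzyme of fermentation. It had 493556, 461604 and 620590 normalized counts after the heat ramp, 37302, 34805 and 41579 in heat shock cells, and 48659, 43683 and 47916 in the control. The heat ramp libraries were all far above the other 6, and the heat shock libraries were all below the control libraries. ADH1 rose 11.2-fold after the heat ramp (log2 fold change 3.48, SE 0.20, limma adjusted p = 2.62e-09), higher than 95.6% of the features tested. After the heat shock its log2 fold change was -0.31, with a 95% interval from -0.74 to 0.13 (limma adjusted p = 0.209), so that the test did not call it with the authors' size factors. Scaled to total counts, the value was -0.48 and was called (limma adjusted p = 0.0323). Against the heat shock, ADH1 was 13.8-fold higher after the heat ramp (log2 fold change 3.78, limma adjusted p = 1.21e-09).

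ADH2 (chromosome XIII, 873291 to 874337, minus strand) encodes the enzyme that oxidises ethanol in the cytosol when glucose is gone. Its libraries held 18116, 17277 and 29607 normalized counts after the heat ramp, 2031, 2270 and 2372 in heat shock cells, and 2760, 3223 and 3137 in the control. No groups overlapped, and the third heat ramp library stood well above the other two of its group. ADH2 rose 6.92-fold after the heat ramp (log2 fold change 2.79, SE 0.18, limma adjusted p = 5.72e-09), as the fermentative gene did. It fell after the heat shock by 0.45 on the log2 scale (limma adjusted p = 0.0424), and this call was lost without any one of the 3 heat shock or 3 control libraries, with adjusted p between 0.0511 and 0.121. ADH2 was 9.46-fold higher after the heat ramp than after the heat shock (limma adjusted p = 1.50e-09).

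The reads of ADH1 and ADH2 can be told apart only in part, because the coding sequences have the same length of 1047 bases and differ at 117 of them (88.8% identity). Of 998 windows of 50 bases, the length of the sequenced reads, 140 (14.0%) are identical between the genes, and all of these lie in a single run of 189 bases from coding base 193 to 381 (chrXV:160214-160402 in ADH1 and chrXIII:873957-874145 in ADH2, R64, minus strand). The coding sequences of the other 6 genes have no window of 50 bases that recurs in the genome. The run that the genes share is shown first, since a read within it has no single place of origin, followed by the window in which they differ most (coding bases 660 to 709, chrXV:159886-159935 in ADH1 and chrXIII:873629-873678 in ADH2, R64, minus strand), with its 14 differences in capitals. All come from the RefSeq R64 genome.
ADH1 and ADH2, shared run: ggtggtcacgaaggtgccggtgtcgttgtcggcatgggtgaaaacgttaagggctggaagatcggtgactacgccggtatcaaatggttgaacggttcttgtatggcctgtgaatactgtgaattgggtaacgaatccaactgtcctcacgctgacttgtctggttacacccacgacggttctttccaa
ADH1, most different window: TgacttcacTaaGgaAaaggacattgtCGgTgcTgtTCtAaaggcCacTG
ADH2, most different window: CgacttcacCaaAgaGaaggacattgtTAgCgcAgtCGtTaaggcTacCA
If every ADH2 count came from an even split of the reads in the identical windows, ADH2 would stand at 7.54% of ADH1. The counted reads of ADH2 were 3.67% to 4.77% of those of ADH1 after the heat ramp, 5.45% to 6.52% after the heat shock and 5.67% to 7.38% in the control, all below that value. How the authors' counting placed such reads is not given in the sources used here, and the share of ADH2 reads that came from ADH1 was not tested. The ADH2 values therefore remain uncertain, its rise after the heat ramp included.

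ADH5 (chromosome II, 533762 to 534817, plus strand) encodes a minor cytosolic enzyme, whose coding sequence is 73.2% identical to that of ADH1. It had 7898, 8558 and 10833 normalized counts after the heat ramp, 521, 532 and 574 in heat shock cells, and 535, 359 and 439 in the control. The heat ramp libraries lay apart from all others, while the ranges of the heat shock and the control overlapped. ADH5 had the highest fold change of the 8 genes, 20.5-fold after the heat ramp (log2 fold change 4.36, SE 0.16, limma adjusted p = 5.13e-11), and it ranked 146 from the top among the 6847 features. Its log2 fold change in the heat shock libraries was 0.31, with an interval from -0.03 to 0.64 (limma adjusted p = 0.110). The value was 0.45 and passed without the first control library, its highest (adjusted p = 0.0349), 0.16 without the second, its lowest (adjusted p = 0.429), and 0.13 with total count scaling (adjusted p = 0.474). ADH5 was 16.6-fold higher after the heat ramp than after the heat shock (limma adjusted p = 9.28e-11).

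ADH3 (chromosome XIII, 434788 to 435915, plus strand) encodes the enzyme of the mitochondrial matrix, which takes part in shuttling reducing equivalents between mitochondrion and cytosol. It had 14087, 12337 and 16799 normalized counts after the heat ramp, 7381, 7766 and 6471 in heat shock cells, and 7047, 6833 and 7004 in the control. The control values differed by little and lay inside the heat shock range, with the heat ramp above both. ADH3 was 2.05-fold higher after the heat ramp than in the control (log2 fold change 1.04, limma adjusted p = 8.54e-06), but with total count scaling the log2 fold change was 0.12 (adjusted p = 0.414). The heat shock value was 0.05, with an interval from -0.25 to 0.34 (limma adjusted p = 0.787). Between the treatments it was 0.99 (limma adjusted p = 1.47e-05) and 0.25 with total count scaling (adjusted p = 0.109).

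ADH4 (chromosome VII, 15159 to 16307, plus strand) encodes an enzyme unrelated in sequence family to Adh1, and its gene is known to be induced by low zinc. It had 2379, 2328 and 3121 normalized counts after the heat ramp, 1620, 1918 and 2071 in heat shock cells, and 996, 1084 and 1160 in the control. The groups stood in this order without overlap. ADH4 rose in both treatments, by a log2 fold change of 1.26 after the heat ramp (SE 0.14, limma adjusted p = 1.70e-06) and by one of 0.79 after the heat shock (limma adjusted p = 0.000406). On total counts the heat ramp value was 0.35 (adjusted p = 0.0316). The order of the treatments depended on the scaling, since heat ramp against heat shock gave 0.48 (limma adjusted p = 0.00788) with the authors' size factors and -0.27 (adjusted p = 0.0912) with total count scaling.

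ADH6 and ADH7 encode the NADPH-dependent enzymes of broad specificity, which reduce branched, aromatic and longer aldehydes. ADH6 (chromosome XIII, 911061 to 912143, minus strand) had 1158, 1051 and 1493 normalized counts after the heat ramp, 9684, 11431 and 10750 in heat shock cells, and 7101, 6903 and 8042 in the control. The groups did not overlap, with the heat ramp values lowest and the heat shock values highest, an order that no other member showed. ADH6 was 6.01-fold lower after the heat ramp than in the control (log2 fold change -2.59, SE 0.14, limma adjusted p = 1.60e-09), with 2.10% of the features tested below it. It rose 1.45-fold after the heat shock (log2 fold change 0.53, limma adjusted p = 0.00570). The heat ramp stood 8.68-fold below the heat shock (log2 fold change -3.12, limma adjusted p = 2.96e-10). All of these directions were kept with total count scaling.

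ADH7 (chromosome III, 309070 to 310155, plus strand), whose coding sequence is 66.5% identical to that of ADH6, was the least abundant member in every group. It had 137, 125 and 106 normalized counts after the heat ramp, 82.1, 82.3 and 93.4 in heat shock cells, and 41.0, 58.7 and 44.2 in the control. The groups did not overlap, but the values rest on 88, 89 and 65 reads after the heat ramp, 92, 93 and 104 in heat shock cells, and 58, 86 and 62 in the control. ADH7 rose in both treatments, by a log2 fold change of 1.35 after the heat ramp (SE 0.21, limma adjusted p = 4.79e-05) and of 0.84 after the heat shock (limma adjusted p = 0.00420). The heat ramp value was 0.44 (adjusted p = 0.0790) with total count scaling. Between the treatments the log2 fold change of 0.51 (limma adjusted p = 0.0460) was not a firm call, with an adjusted p of 0.0603 with the culture as a replicate block, of 0.0650 with TMM scaling, of 0.0766 in edgeR's quasi-likelihood test and of 0.0540 to 0.151 in 6 of 9 fits with 1 library removed. These were the fits without the first or second heat ramp library, any one heat shock library or the third control library. Total count scaling turned the value to -0.23 (adjusted p = 0.358).

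SFA1 (chromosome IV, 159604 to 160764, plus strand), named ADH5 in the nomenclature of some other organisms, encodes glutathione-dependent formaldehyde dehydrogenase, which also handles longer alcohols. It had 3272, 3125 and 3626 normalized counts after the heat ramp, 3126, 3084 and 2319 in heat shock cells, and 2873, 2839 and 2939 in the control. The heat ramp values lay slightly above the control values, and the third heat shock library lay below all others. SFA1 did not pass the test in any comparison with the authors' size factors. Its log2 fold change was 0.21 for the heat ramp (interval -0.07 to 0.49, limma adjusted p = 0.156), -0.03 for the heat shock (interval -0.31 to 0.25, limma adjusted p = 0.837) and 0.24 between the treatments (interval -0.04 to 0.52, limma adjusted p = 0.110). Scaled to total counts, it was -0.71 in heat ramp against control cells (adjusted p = 0.000202) and -0.50 between the treatments (adjusted p = 0.00390), both past the threshold in the other direction.

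**Figure D2:**
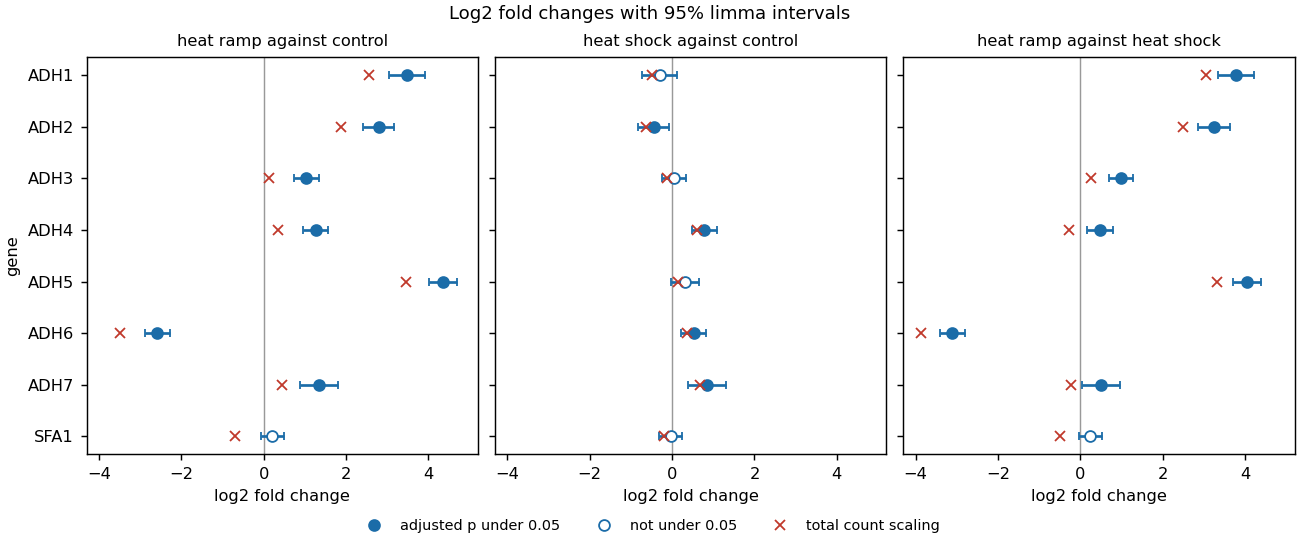
Log2 fold changes of the 8 genes with 95% limma intervals in 3 panels, one for each treatment against the control and one for the heat ramp set against the heat shock, with crosses for total count scaling. With the authors' size factors, the log2 fold changes in the heat ramp panels span -3.12 to 4.36. On that scaling, every heat shock value against the control lies between -0.45 and 0.84.

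To compare levels between genes, normalized counts were divided by the coding length in kb. Summed over the 8 genes, this level was 550154 ± 90947 after the heat ramp, 59184 ± 2500 after the heat shock and 64403 ± 2949 in the control (SD, n = 3 each). The genes held 1.61% ± 0.211 of all counted reads after the heat ramp, 0.297% ± 0.00656 after the heat shock and 0.362% ± 0.0109 in the control. ADH1 led in every group. By level per kb it ranked 11 among 6007 protein-coding genes after the heat ramp, 79 after the heat shock and 34 in the control.

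The order behind ADH1 differed between the groups. After the heat ramp it ran ADH2, ADH3, ADH5, SFA1, ADH4, ADH6 and ADH7, where the ranges of SFA1 and ADH4 overlapped. After the heat shock it ran ADH6, ADH3, SFA1, ADH2, ADH4, ADH5 and ADH7, where the ranges of SFA1 and ADH2 overlapped. In the control it was ADH6, ADH3, ADH2, SFA1, ADH4, ADH5 and ADH7, with no overlap between neighbours. ADH6 thus stood next to ADH1 after the heat shock and in the control, and was next to last after the heat ramp.

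As shares of the summed level per kb, ADH1 took 91.2% ± 0.467 after the heat ramp, 61.1% ± 3.26 after the heat shock and 69.3% ± 1.17 in the control. The ethanol-using ADH2 took 3.70% ± 0.541, 3.59% ± 0.204 and 4.52% ± 0.519 in the same groups. The NADPH-dependent ADH6 and ADH7 together took 0.228% ± 0.00391 after the heat ramp, 16.7% ± 1.48 after the heat shock and 10.6% ± 0.615 in the control. Mitochondrial ADH3 took 2.32% ± 0.0883 after the heat ramp, 10.8% ± 1.41 after the heat shock and 9.59% ± 0.300 in the control. ADH5 was the member other than ADH1 whose share was higher after the heat ramp than in both other groups, with 1.57% ± 0.114 against 0.868% ± 0.0110 after the heat shock and 0.651% ± 0.109 in the control.

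**Figure D3:**
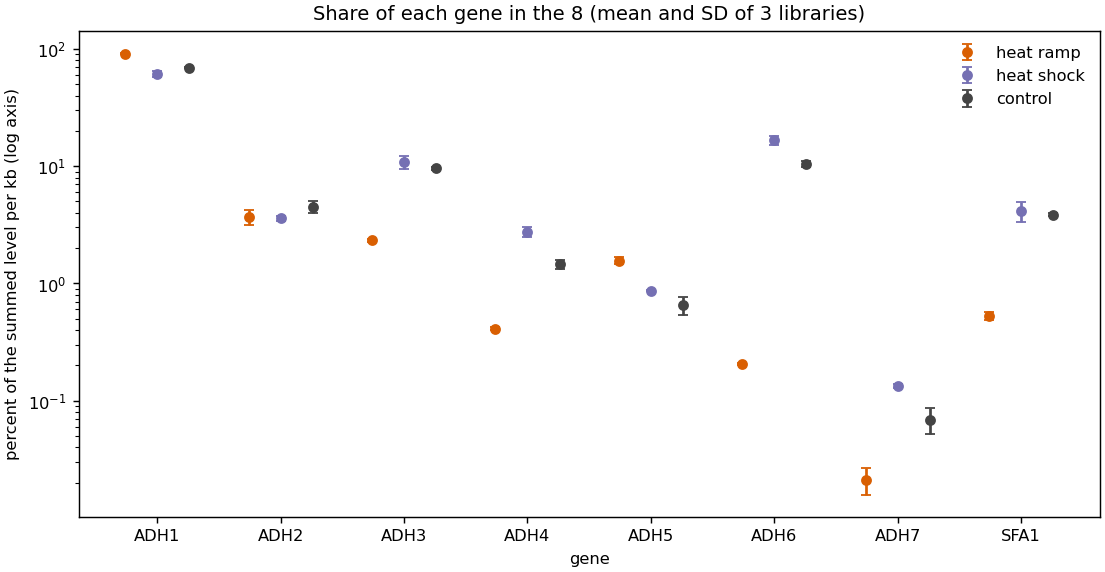
Share of each gene in the summed level per kb of the 8 genes, in percent on a log axis, for the heat ramp, the heat shock and the control, as the mean with its SD over 3 libraries. ADH1 holds 91.2% after the heat ramp, while ADH6 holds 0.207% there, 16.6% after the heat shock and 10.5% in the control.

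Ratios between genes of one library do not depend on the scaling between libraries, so that they separate the isozymes without the choice of size factors. For 8 ratios in 3 comparisons an exact two-sided permutation test of 3 against 3 libraries was run. This test did not pair the libraries of the same culture. Its smallest possible p is 0.1, so that no ratio could pass 0.05. Of the 24 tests, 20 reached that smallest p, with an adjusted p of 0.12 over the 24. With 3 against 3 libraries, this p means only that the groups did not overlap. Of the single features tested, 80.8% did not overlap in heat ramp against control cells. That share was 68.1% in heat shock against control cells and 72.1% between the treatments. All ratios but that of ADH7 to ADH6 have ADH1 as denominator. The comparisons also share libraries, so that the tests are not independent.

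The ratio of ADH6 to ADH1, NADPH-dependent over fermentative, was 0.227%, 0.220% and 0.233% after the heat ramp, 25.1%, 31.8% and 25.0% in heat shock cells, and 14.1%, 15.3% and 16.2% in the control. No groups overlapped, and the ratio was 67.0-fold lower after the heat ramp than in the control (log2 difference -6.07, SE 0.063, exact permutation p = 0.1). It was 1.79-fold higher after the heat shock than in the control (log2 difference 0.84, exact permutation p = 0.1). The ratio of ADH7 to ADH6, the NADPH-dependent pair, was 11.8%, 11.8% and 7.12% after the heat ramp, 0.846%, 0.718% and 0.867% in heat shock cells, and 0.576%, 0.848% and 0.548% in the control. It was 15.5-fold higher after the heat ramp than in the control without overlap, while the heat shock and control ranges overlapped (exact permutation p = 0.3).

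The ratio of ADH2 to ADH1, ethanol-using over fermentative, was 3.67%, 3.74% and 4.77% after the heat ramp, 5.45%, 6.52% and 5.71% in heat shock cells, and 5.67%, 7.38% and 6.55% in the control. The heat ramp values were below all others, by 1.61-fold against the control (log2 difference -0.69, SE 0.16, exact permutation p = 0.1), and the heat shock and control ranges overlapped (exact permutation p = 0.4). Reads that cannot be told apart between these genes enter this ratio. The ratio of ADH5 to ADH1 was 1.59%, 1.84% and 1.73% after the heat ramp, 1.39%, 1.52% and 1.37% in heat shock cells, and 1.09%, 0.814% and 0.909% in the control. It was higher in both treatments than in the control, by log2 differences of 0.88 (heat ramp) and 0.61 (heat shock), with no overlap. The ratios of ADH3, ADH4, ADH7 and SFA1 to ADH1 were all lower after the heat ramp than in the control without overlap, with log2 differences of -2.44, -2.22, -2.11 and -3.27 in that order. In the heat shock libraries, the ratios of ADH4 and ADH7 to ADH1 were higher than in the control by 1.09 and 1.16 without overlap, while those of ADH3 and SFA1 overlapped with the control.

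**Figure D4:**
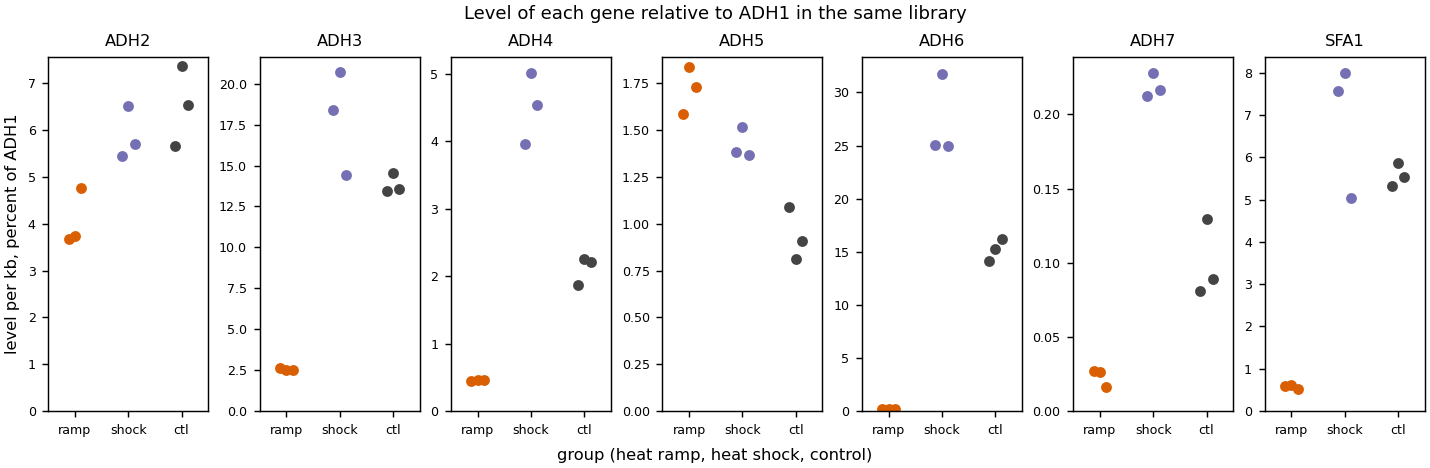
Ratio of each other gene to ADH1 in the same library, in percent of levels per kb on axes from 0, with a point for each library of the heat ramp, the heat shock and the control. ADH5 is the gene whose own ratio is higher after the heat ramp than in both other groups, and the ratio of ADH6 there is 0.220% to 0.233% against 14.1% to 16.2% in the control.

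Within the groups, the libraries did not spread alike. The median coefficient of variation over the 8 genes was 16.5% after the heat ramp, 8.67% after the heat shock and 7.84% in the control. The third heat ramp library held the highest value of its group for 7 of the 8 genes, ADH7 being the exception, and the second held the lowest for 6. ADH2 varied most after the heat ramp (31.8%), SFA1 after the heat shock and ADH5 in the control (19.8%). In every fit that left out 1 library, 7 genes were called for the heat ramp against the control, 6 higher and 1 lower.

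For each member, the features with the most similar pattern were found by Pearson correlation of log2 values over the 9 libraries, which fall into 3 groups and share their size factors, so that these correlations are descriptions only. ADH1 was most like TDH2 (r = 0.998), a glyceraldehyde-3-phosphate dehydrogenase gene of glycolysis, and MCP1 (r = 0.997). ADH2 was most like CDC19 (r = 0.999), the pyruvate kinase gene, and BNA6 (r = 0.997). ADH5 was most like YMR105W-A and NNR1 (r = 0.996 for both), and ADH3 like YJL068C (r = 0.995) and AIP1 (r = 0.993). ADH6 was most like NOC4 (r = 0.998), of ribosome assembly, and LEU9 (r = 0.997), of leucine synthesis. ADH4 was most like YNL235C (r = 0.990) and YDL186W (r = 0.989), ADH7 like the hexose transporter gene HXT13 (r = 0.992) and snR47 (r = 0.987), and SFA1 like TRX2 (r = 0.934) and YDL007C-A (r = 0.924). Among the members, ADH1 correlated with ADH2 at 0.993, with ADH5 at 0.989 and with ADH6 at -0.982.

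The other genes of the route between pyruvate and acetate were split after the heat ramp. Against the control, 6 of 10 were higher and 4 lower, beside 78.5% of all features called. The median log2 fold change was 0.54, against -0.01 for all features. The highest was ALD3, an aldehyde dehydrogenase gene of stress conditions (log2 fold change 4.05), and the lowest was ALD5, of a mitochondrial aldehyde dehydrogenase (-4.27). PDC1, the main pyruvate decarboxylase gene, which supplies acetaldehyde to Adh1, was at 1.95, and ALD6, of the NADPH-producing cytosolic aldehyde dehydrogenase, at -4.22. In the heat shock comparison 2 were higher, with ALD4 at 0.61, and 4 lower, with PDC6 at -1.64. The median was -0.30, against 0.04 for all features, of which 57.6% were called. Under total count scaling the heat ramp counts were 3 higher and 6 lower. ALD2 and ALD3 are close copies, and their reads were not separated further.

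Among 11 regulators known to act on alcohol dehydrogenase genes, heat ramp cells had 4 higher and 4 lower than the control (median log2 fold change -0.24, against -0.01 for all features), beside 78.5% of all features called. GCR1, an activator of glycolytic genes, was highest (log2 fold change 1.74) and MIG1, a repressor in glucose, lowest (-2.17). ADR1 and CAT8, activators of ADH2 and other genes of ethanol use, were at 1.45 and 1.06 after the heat ramp, and ZAP1, the activator of ADH4 in low zinc, at -1.48. The heat shock comparison had 0 higher and 6 lower, between YAP1 at -0.52 and MSN4 at -1.52 (median -0.52, against 0.04 for all features, of which 57.6% were called). ZAP1 was among those lower, at -0.79 (limma adjusted p = 0.000256). So was CAT8, at -1.24 (limma adjusted p = 2.38e-05), while ADR1 was at 0.23 and was not called (limma adjusted p = 0.253). On total counts, the heat ramp had 2 higher against 8 lower, and the heat shock had 0 against 9.

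Of 8 genes that respond to zinc through Zap1, as ADH4 does, 7 were higher after the heat shock than in the control and 0 lower. The median log2 fold change of the 8 was 0.71, against 0.04 for all features, of which 57.6% were called. The 7 higher genes lay between ZRT1, the high-affinity zinc transporter gene, at 0.50 and IZH2, of a membrane protein of zinc homeostasis, at 0.96. ADH4, at 0.79, was within that range after the heat shock, and at 1.26 it was above the highest of them after the heat ramp. After the heat ramp 4 of the 8 were higher, led by ZPS1 at 1.10, and 2 lower, with IZH1 at -1.21. Of all features, 78.5% were called there. With total count scaling the counts of the 8 genes were 0 higher and 7 lower. Of the partners of SFA1 in formaldehyde breakdown, YJL068C, of S-formylglutathione hydrolase, rose after the heat ramp (log2 fold change 1.46), and FDH1, of formate dehydrogenase, fell after the heat shock by 0.45 on the log2 scale.

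Of 5 other medium-chain dehydrogenase genes, heat ramp cells had 4 higher than the control and 0 lower (median log2 fold change 1.96, against -0.01 for all features, of which 78.5% were called), between XYL2, of xylitol dehydrogenase, at 1.78 and BDH1, of butanediol dehydrogenase, at 3.47. SOR1 and SOR2 are nearly identical copies, so that their separate values are uncertain. Against the control, the heat shock had 2 higher, with SOR2 at 0.99, and BDH2 was lower at -0.72, beside 57.6% of all features called. Total count scaling gave heat ramp counts of 4 higher and 1 lower for these 5 genes. Of 7 other NADPH-dependent reductase genes, 5 were higher after the heat ramp, with the aldose reductase gene GRE3 at 5.59, and 1 was lower, OYE3 at -0.52 (median 0.77, beside the same 78.5% called and -0.01 over all features). The heat shock had 2 higher, led by ARI1 at 0.91, and 2 lower, with OYE3 at -0.73 (median -0.02, beside 57.6% called and 0.04 over all features). Total count scaling gave heat ramp counts of the reductases of 1 higher and 3 lower. ADH6, at -2.59 after the heat ramp, lay below all 7.

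In the fusel alcohol route, which makes branched and aromatic aldehydes that Adh6, Adh7 and Sfa1 can reduce, heat ramp cells had 0 of 5 genes higher than the control and 4 lower (median log2 fold change -0.92, against -0.01 for all features, of which 78.5% were called), between ARO9 at -0.53 and ARO10, of a decarboxylase, at -2.38. In heat shock cells 3 were higher, with the aminotransferase gene ARO8 at 0.57, and 1 was lower, BAT2 at -0.37 (median 0.52, against 0.04 for all features, of which 57.6% were called). Beside these medians, ADH6 was at -2.59 in heat ramp cells and 0.53 in heat shock cells, ADH7 was at 1.35 and 0.84, and SFA1, which did not pass the test, was at 0.21 and -0.03.

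**Figure D5:**
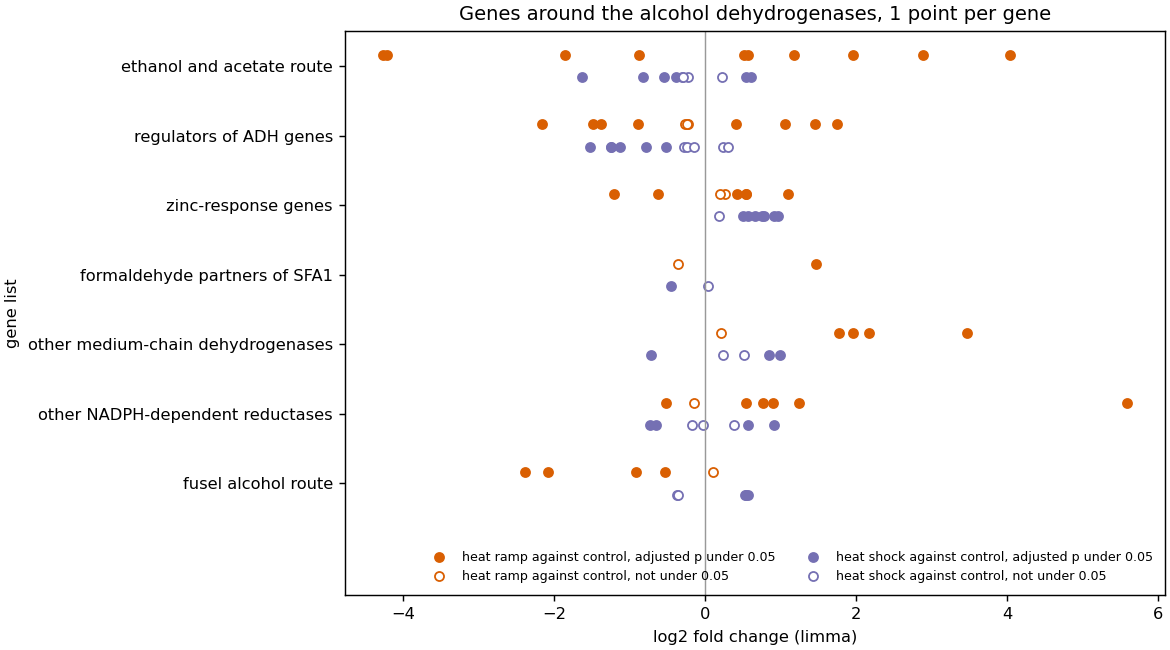
Log2 fold changes against the control of the genes in the lists around the alcohol dehydrogenases, with a row for each list. Both treatments share a panel and differ in colour, and points are filled where the adjusted p is under 0.05. The heat ramp values spread from -4.27 (ALD5) to 5.59 (GRE3), and those of the heat shock lie between -1.64 (PDC6) and 0.99 (SOR2).

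The sequence before the genes was searched for short motifs, from 250 bases before to 50 bases after the start of each gene in RefSeq R64. The stress response element CCCCT was found in 0 of 8 members and in 21.6% of 6001 such windows of protein-coding genes. The heat shock element was found in 0 of 8 and 0.783%, the zinc-responsive element in 0 of 8 and 0.0833%, and the Yap1 site TTACTAA, searched on both strands and so equal to TTAGTAA, in 0 of 8 and 7.45%. These letters are thus absent from the windows searched, which do not hold the whole upstream region. The letters TATAAA, chosen after the sequences were seen and searched on the coding strand in the 250 bases before the start, were found once before each of the 8 genes and before 28.4% of the 6001 genes. They stood 128 bases before the start codon of ADH1, 161 before ADH2, 138 before ADH3, 126 before ADH4, 121 before ADH5, 102 before ADH6, 93 before ADH7 and 119 before SFA1. The match is shown in capitals, with 20 bases on either side, for the members that rose most after the heat ramp and for ADH6, which fell (chrXV:160697-160742 for ADH1, chrXIII:874473-874518 for ADH2 and chrXIII:912220-912265 for ADH6 on the minus strand, chrII:533621-533666 for ADH5 on the plus strand, R64).
ADH1: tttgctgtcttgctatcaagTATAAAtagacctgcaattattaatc
ADH2: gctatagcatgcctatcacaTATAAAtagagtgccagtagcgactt
ADH5: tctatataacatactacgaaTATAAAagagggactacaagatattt
ADH6: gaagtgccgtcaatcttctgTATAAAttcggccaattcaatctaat
Because the letters were chosen after the sequences were seen, their presence before all 8 genes, ADH6 included, is a description only. None of the 8 genes overlaps another annotated gene. ADH7, ADH6 and ADH4 lie 6465, 12288 and 15158 bases from a chromosome end.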

How the data were processed

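Polyadenylated RNA was sequenced as 50-base single-end reads. Per the labels, the authors trimmed reads with Trimmomatic 0.32, aligned them to SacCer3 with Bowtie2 and used DESeq2. The counting tool, annotation and strand setting are not given in the sources used here. The deposited values are normalized counts, a signal that the authors obtained by dividing reads by the size factor of the library. In every library 100% of values were whole multiples of the smallest (tolerance 0.01), so that reads were recovered. Columns of the authors' own comparisons (fold changes and p-values) were not used.

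Over the 9 libraries, limma 3.58.1 (R 4.3.3, lmFit and eBayes with trend, group only) was fitted to log2(normalized count + 1) of the 6847 features with a mean of at least 10, two-sided, with Benjamini-Hochberg adjustment over these features at 0.05. Fold changes are on this scale, which understates low genes. Errors are SDs over 3 libraries or limma standard errors. Depth was at least 22579312 reads per library. The limma intervals rest on the spread between libraries of the same group. The limit of 3 reads covers counting error only. The same script was checked on simulated data.

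According to the study's supplement, each of 3 cultures gave one sample per group, so the numbers pair the libraries. Deviations of same-numbered libraries correlated at -0.20 to 0.29 across features. The alternatives were pseudocounts of 0.1 and 5, no filter, protein-coding genes only, TMM and total count scaling, only the groups compared, edgeR 4.0.16 and DESeq2 1.42.0 on recovered reads, the culture as a replicate block, a log2 fold change of at least 1, leaving out each library, and shares and ratios without coding length or with ADH1 and ADH2 summed. All 8 members are named. In each list the genes highest and lowest past the threshold against the control are named, and for each member the 2 features most like it. PDC1, ALD6, ADR1, CAT8 and ZAP1 were named after their values were seen. The members and lists were chosen with earlier results of these data known. Of 7126 identifiers, 6048 matched the R64 annotation, whose gene models here give coding length.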

Additional observations from a re-analysis of the deposited data

How the results depend on the processing

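Total count scaling reversed SFA1 to -0.71 for the heat ramp against the control, ADH3 to -0.13 for the heat shock against the control, and, between the treatments, ADH4 to -0.27, ADH7 to -0.23 and SFA1 to -0.50. Leaving out 1 heat shock library moved ADH3 over a range of -0.010 to 0.12 and SFA1 over -0.11 to 0.11 in the heat shock comparison, where neither was called, with the sign turned for ADH3 without the second library and for SFA1 without the third. With a log2 fold change of at least 1 required, the features called were 3104 in heat ramp against control cells, 1226 in heat shock against control cells and 2777 between the treatments, and the alcohol dehydrogenase genes called were 0 for the heat shock and 4 between the treatments. With ADH1 and ADH2 summed, the share was 94.9% after the heat ramp, 64.7% after the heat shock and 73.8% in the control. With the culture as a replicate block, ADH7 between the treatments lost its call (log2 fold change 0.51, adjusted p = 0.0603), and no other call of a member changed. The cause of these changes was not tested. The limits are 3 cultures of one strain, untreated controls with no matched holding time stated, unknown placing of reads shared by ADH1 and ADH2, and 58 to 104 reads for ADH7.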
